A study of Mus musculus with 20 samples.

Results

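The proximal colon (PC) of mice fed 2% resistant potato starch (RPS) was compared with that of mice fed none. The comparison used the 10 libraries whose labels give 0% or 2% raw potato starch as the treatment, 5 per diet, of 20 libraries in the series. All mice were C57BL/6, an inbred laboratory strain, and were 3 weeks old when they began 6 weeks on the TWD (Total Western Diet), which mirrors American nutrient intake. The 0% RPS group then stayed on the TWD and the 2% RPS group ate the TWD with 2% RPS for 3 weeks, so both groups carried the same Western diet background. Poly(A) RNA of the PC tissue was sequenced, which mixes epithelium, stroma, immune cells, and muscle. Fewer cells of a type and less RNA per cell therefore cannot be told apart.

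RPS is raw starch granules that resist digestion in the small intestine and reach the large bowel, where bacteria ferment them to short-chain fatty acids. Butyrate, the fatty acid that colonocytes burn, is oxidized in their mitochondria and also inhibits histone deacetylases. The surface epithelium in turn releases mucus and antimicrobial proteins such as the Reg3 lectins, whose genes respond to bacteria and to the cytokine IL-22.

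The 10 libraries held 20581013 to 32871160 counts over 12701 genes, of which 12561 had a test. Replicate 2 of 0% RPS stood apart, with a mean distance of 38.5 to the other libraries of its diet on the variance-stabilized scale, whereas the other 0% RPS libraries were at 24.9 to 27.4 and the 2% RPS libraries at 20.4 to 24.9. In that library the fibroblast, plasma cell, and goblet cell lists and the Hox genes Hoxa9 and Hoxa7 were high. Log2 fold changes of named genes that moved by over 1.5 times without that library are given both ways. The tissue carried epithelial markers, which do not tell the PC from other segments of the large bowel. Of 16 colonocyte and 18 goblet cell markers, 15 and 18 were in the table, and the epithelial adhesion gene Epcam had 37453 to 40161 normalized counts (counts divided by the library's size factor) at 0% RPS and 39984 to 44025 at 2% RPS. Lymphocyte and granulocyte markers were poorly covered, with 6 of 27 T cell, 4 of 15 B cell, and 1 of 18 mast cell and granulocyte markers in the table. Fabp6, the bile acid carrier of the ileum, reached 4753 at 0% RPS and ranged from 2038 to 8504 at 2% RPS. Its lowest library was replicate 2 of 0% RPS, with 43 raw counts, and its difference did not pass (adjusted p = 0.578).

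The first question was which genes the lowest starch level changed. Genes were called changed where the DESeq2 p, adjusted by Benjamini-Hochberg over all genes tested, was at most 0.05 and the fold change at least 1.5. At 2% RPS 3 genes changed, or 0.0239% of 12561, and all 3 were higher than at 0% RPS. They were Akr1b7, an aldo-keto reductase that detoxifies reactive aldehydes, Gm33424, a long noncoding RNA, and Atf3, a bZIP transcription factor induced by stress. No gene was lower by this rule. With the same rule 55 genes (0.438%) changed at 5% RPS and 113 (0.9%) at 10% RPS, comparisons that share the 0% RPS libraries. The edgeR quasi-likelihood test called 0 genes at 2% RPS, with a smallest adjusted p of 0.0579, although 1000 genes had an unadjusted p under 0.05 in edgeR and 1093 (8.7%) in DESeq2. Of the 1093, 661 were higher (5.26% of genes tested) and 432 lower (3.44%). Genes under this limit are called nominally higher or lower here, since all but the 3 changed genes failed the correction for multiple tests. A value in parentheses after a gene is its log2 fold change, 2% against 0% RPS.

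Akr1b7 (ENSMUSG00000052131, chr6:34389021-34400449 on GRCm39, + strand, protein-coding) had 134, 118, 81.8, 108, and 79.8 normalized counts in the 5 libraries of 0% RPS. In the 5 libraries of 2% RPS it had 313, 208, 234, 194, and 296. Every 2% RPS library lay above every 0% RPS library. The means were 104 ± 23.3 and 249 ± 53.1 (SD, n = 5 each), a 2.39-fold difference, and the fitted log2 difference was 1.26 with an SE of 0.21 (adjusted p = 1.28e-05 in DESeq2 and 0.0579 in edgeR). The gene was called in every one of the refits without 1 library that gave it an adjusted p, 8 of 10, and in 10 of 10 with independent filtering switched off, with log2 fold changes from 1.17 to 1.37.

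Gm33424 (ENSMUSG00000113101, chr13:53139967-53190603 on GRCm39, + strand, lncRNA) had 53.8, 26.0, 69.1, 49.4, and 36.3 normalized counts at 0% RPS and 98.5, 101, 136, 95.2, and 135 at 2% RPS. The groups did not overlap here either. The means were 46.9 ± 16.5 and 113 ± 20.6 (SD, n = 5 each), and the fitted log2 difference was 1.27 with an SE of 0.26 (adjusted p = 0.00448 in DESeq2 and 0.463 in edgeR). It was called in 6 of the 8 refits without 1 library that gave it an adjusted p, and without replicate 5 of 0% RPS its adjusted p was 0.0742.

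Atf3 (ENSMUSG00000026628, chr1:190902493-190950241 on GRCm39, - strand, protein-coding) had 430.0, 499, 295, 314, and 316 normalized counts at 0% RPS and 1182, 833, 798, 449, and 478 at 2% RPS. Replicates 1, 2, and 3 of 2% RPS lay above all 0% RPS libraries, whereas replicates 4 and 5 lay below the highest of them. The means were 371 ± 89.2 and 748.02 ± 299.9 (SD, n = 5 each), with a fitted log2 difference of 1.01 and an SE of 0.22 (adjusted p = 0.016 in DESeq2 and 0.591 in edgeR). This call was the least stable of the 3, holding in 3 of the 8 refits without 1 library that gave it an adjusted p, and without replicate 1 of 2% RPS the adjusted p was 0.289. Each of the 3 genes overlaps an annotated gene on the opposite strand (Gm68356, Gm33519, and Gm55866, respectively), and the use of strand in counting was not stated.

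**Figure D1:**
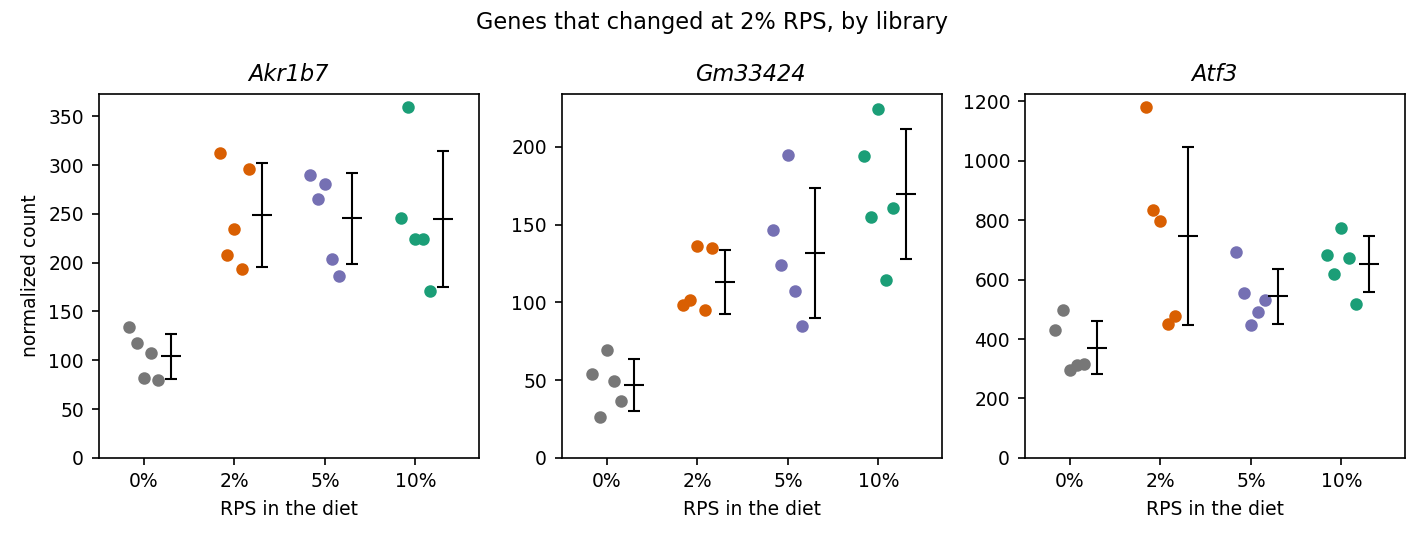
Normalized counts (vertical axes, linear from 0) of Akr1b7, Gm33424, and Atf3 in each library (points) of the diets with 0, 2, 5, and 10% RPS, with the mean and SD of 5 libraries beside them. Akr1b7 and Gm33424 separate 2% from 0% RPS in every library, and Atf3 spreads from 449 to 1182 at 2% RPS.

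The promoters of the 2 protein-coding genes are shown as the sequence next to which these changed transcripts start. The 250 bases before the start of each gene, 5′ to 3′ on the gene's strand, are from RefSeq on GRCm38.p6. Capitals mark every match, on either strand, to the cyclic AMP response element TGACGTCA, its core TGACG, the AP-1 site TGANTCA, the TATA box TATAAA, or the nuclear receptor motif AGGTCA.
Akr1b7 (chr6:34412112-34412361, + strand): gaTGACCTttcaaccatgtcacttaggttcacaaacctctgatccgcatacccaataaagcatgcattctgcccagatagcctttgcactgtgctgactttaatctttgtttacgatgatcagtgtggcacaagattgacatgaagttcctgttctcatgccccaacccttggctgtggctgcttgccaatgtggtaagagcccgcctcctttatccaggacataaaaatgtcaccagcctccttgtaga
Atf3 (chr1:191183334-191183583, - strand): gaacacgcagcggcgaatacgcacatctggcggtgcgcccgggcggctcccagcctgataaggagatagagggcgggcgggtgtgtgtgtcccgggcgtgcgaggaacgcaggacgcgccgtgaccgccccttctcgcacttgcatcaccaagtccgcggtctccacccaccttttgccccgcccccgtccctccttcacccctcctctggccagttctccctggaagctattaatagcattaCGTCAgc
The Akr1b7 stretch held 1 AGGTCA motif, read on the opposite strand, a match found in 14% of 32851 RefSeq promoters of this length. The Atf3 stretch held 1 TGACG core, also on the opposite strand, found in 17.8% of promoters, whereas the full element was found in 1.55%. Neither stretch held the AP-1 letters (6.75% of promoters) or TATAAA (12.4%). These are matches of letters and not binding sites.

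Next, the 3 genes were followed to the higher starch levels. Akr1b7 had 290.3, 266, 280.5, 204, and 187 normalized counts at 5% RPS and 246, 359, 224, 224, and 171 at 10% RPS. Its log2 fold change against 0% RPS was 1.26 at 2%, 1.24 at 5%, and 1.24 at 10% RPS, and the difference from 2% RPS was -0.02 at both (95% interval -0.42 to 0.37 at each). Gm33424 stood at 1.27, 1.48, and 1.85, with a difference of 10% from 2% RPS of 0.58 (95% interval 0.10 to 1.06, adjusted p = 0.414). Atf3 stood at 1.01, 0.55 (adjusted p = 0.168), and 0.82 (adjusted p = 0.0121), and its 5% RPS level was 0.46 below that of 2% RPS in log2 (95% interval -0.89 to -0.03, unadjusted p = 0.0351, adjusted p = 1). None of the 3 genes differed between 2% and a higher level past the correction, which does not show that the levels were alike. Over all genes 0 (0%) changed between 2% and 5% RPS and 7 (0.0557%) between 2% and 10% RPS.

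Behind the 3 changed genes stood those with the next smallest p. Of the genes with a mean of at least 10 in the higher diet, the next 7 on the higher side were Reg3b, Suox, Art2a, Panx1, Fuca1, Selenos, and Mrps10, with adjusted p from 0.164 to 0.219. Suox, the mitochondrial sulfite oxidase, had 1759.6, 1005, 1793, 1526, and 976 normalized counts at 0% RPS and 2605, 2942, 1687, 1843, and 2472 at 2% RPS. Replicate 3 of 2% RPS lay within the 0% RPS range, and the log2 fold change was 0.71 (SE 0.18). It too was called in 4 of the 10 refits without 1 library. Among these, the refits without replicate 1 of 0% RPS and without replicate 4 of 2% RPS gave an adjusted p to only 5018 and 5994 genes. With independent filtering off, Suox was not called without replicate 4 of 2% RPS. Panx1, a membrane channel that releases ATP, had 1021, 863, 840.0, 747.85, and 792 normalized counts at 0% RPS and 1207, 1147, 1073, 1057, and 1023 at 2% RPS. The groups did not overlap, but the log2 fold change was only 0.37. Art2a, a gene of the ADP-ribosyltransferase family, had a log2 fold change of 0.57 and overlapped narrowly, with 199 to 329 against 325 to 398. Its log2 fold change was 0.82 at 5% RPS (adjusted p = 9.92e-05) and 0.92 at 10% RPS (adjusted p = 1.21e-06). The lysosomal fucosidase Fuca1 (0.20), the endoplasmic reticulum selenoprotein Selenos (0.21), and the mitochondrial ribosomal protein Mrps10 (0.24) had small differences.

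On the lower side the 10 smallest p belonged to 9430015G10Rik, Zfp931, Arap3, Ighv1-82, Acin1, Slc15a1, H2-Q5, Pdgfrb, C87436, and Fgd5, and none passed (adjusted p 0.219 to 0.249). Slc15a1, the proton-coupled peptide transporter PepT1, had 197, 553, 165, 332, and 374 normalized counts at 0% RPS and 194, 145, 81.7, 141, and 162 at 2% RPS. All but replicate 1 of 2% RPS were below the lowest 0% RPS library, which had 165. In log2 the difference was -1.16 (SE 0.33), and against the same 0% RPS libraries it was -1.60 at 5% RPS (adjusted p = 8.36e-04) and -1.69 at 10% RPS (adjusted p = 1.39e-04), where it passed. Pdgfrb, the growth factor receptor of pericytes and fibroblasts, had -0.26 at 2% RPS and -0.36 and -0.43 at 5% and 10% RPS. The nonclassical class I gene H2-Q5 had 61.2 to 76.0 normalized counts at 0% RPS and 38.7 to 50.3 at 2% RPS without overlap (log2 fold change -0.57), but it belongs to a family of near-identical genes among which short reads may be split. The zinc finger gene Zfp931 (-0.55), the GTPase regulator Arap3 (-0.32), the splicing-associated Acin1 (-0.16), the endothelial exchange factor Fgd5 (-0.40), 9430015G10Rik (-0.31), and C87436 (-0.25) also had nominal differences.

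**Figure D2:**
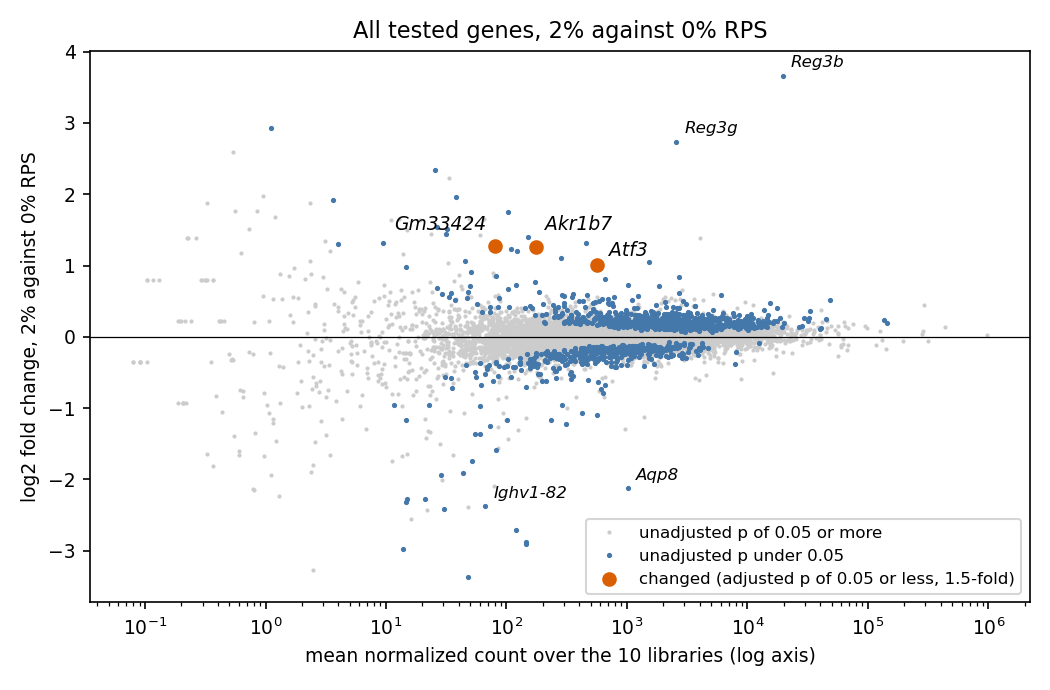
Each point is a tested gene, with its mean normalized count over the 10 libraries (horizontal, log axis) and its log2 fold change, 2% against 0% RPS (vertical). The 3 changed genes lie at 1.01 to 1.27, and most nominal genes lie close to 0.

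Genes whose groups did not overlap were counted without a test, and with 5 libraries per diet some genes separate by chance. Of 12359 genes with a mean of at least 10 in the higher diet, all 5 libraries of 2% RPS lay above all 5 of 0% RPS in 59 (0.477%) and below in 32 (0.259%). At 1.5-fold or more 5 were higher (0.0405%), namely Akr1b7, Gm33424, Mal, Sprr2a1, and Rpp25, and 1 was lower (0.00809%), Ighv1-82. Mal, a lipid raft protein of apical transport, had 1144, 1017, 971, 843, and 1009 normalized counts at 0% RPS and 2211, 1672, 1274, 1361, and 3829 at 2% RPS, a log2 difference of 1.05 that did not pass (adjusted p = 0.365). It reached 1.81 at 5% RPS (adjusted p = 2.64e-04) and 1.28 at 10% RPS (adjusted p = 0.0121). The cornified envelope gene Sprr2a1 had 14.5 to 27.4 against 28.3 to 41.7, but it overlaps its near copy Sprr2a2. The ribonuclease P subunit gene Rpp25 had 23.1 to 30.9 against 33.8 to 51.3. The immunoglobulin segment Ighv1-82 had 106, 242, 42.7, 40.6, and 128 at 0% RPS and 13.1, 35.5, 1.17, 28.9, and 29.3 at 2% RPS, a log2 difference of -2.37 (adjusted p = 0.219).

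The study lists 14 PC genes of antibacterial, antiparasitic, or antiviral defense, and it chose them on libraries of this series, so the list is not independent evidence of a direction. At 2% RPS 12 of 14 had a log2 fold change above 0, compared with 47.6% of all genes. Of the 14, 7 were nominally higher (4 without replicate 5 of 2% RPS), compared with 5.26% of all genes. None was nominally lower, and 0 changed. The median was 0.47, whereas the median of all genes was -0.01. Reg3b, a lectin that kills bacteria, had 2114, 553, 8323, 2261, and 1095 normalized counts at 0% RPS and 25600.3, 21359, 1723, 5714, and 127115 at 2% RPS. Replicates 1, 2, and 5 of 2% RPS were above every 0% RPS library, whereas replicates 3 and 4 lay below the highest, replicate 3 of 0% RPS. The log2 fold change of 3.66 had an SE of 0.90 and did not pass (adjusted p = 0.164), and it was 2.24 without replicate 5 of 2% RPS. The gene was called in 4 of the 10 refits without 1 library, those without replicate 1 or 3 of 0% RPS or replicate 3 or 4 of 2% RPS, and also with a smooth muscle score as a covariate. Against the same 0% RPS libraries it was 4.71 at 5% RPS (adjusted p = 2.64e-04) and 4.06 at 10% RPS (adjusted p = 0.00137).

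Reg3g, the lectin that binds peptidoglycan, had 316, 239, 2362, 308, and 128 normalized counts at 0% RPS and 3871, 2471, 279, 798, and 14926 at 2% RPS, a log2 difference of 2.74 (adjusted p = 0.421). The third member Reg3a was low, with 1.04 to 22.8 at 0% RPS and 16.3 to 117 at 2% RPS, a log2 difference of 1.51 (adjusted p = 0.4). Replicate 5 of 2% RPS was the highest for all 3 lectins and replicate 3 of 2% RPS the lowest of its group. Reads of these related genes may be partly shared. Lpo, the secreted lactoperoxidase, had a smaller difference without overlap between the diets, with 612, 469, 561, 565, and 623 at 0% RPS and 855, 645, 850.5, 775, and 963 at 2% RPS. In log2 this difference was 0.53 with an SE of 0.16 (adjusted p = 0.249), compared with 0.95 at 5% RPS and 1.21 at 10% RPS. Plac8, a cysteine-rich protein of epithelial and immune cells, had 12316 to 17704 and 14554 to 24247 (0.40, adjusted p = 0.45).

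The oxidase Duox2, which makes hydrogen peroxide at the epithelial surface, had a log2 fold change of 0.27 at 2% RPS (adjusted p = 0.836, and 0.51 in log2 without replicate 2 of 0% RPS) and of 1.25 and 1.25 at 5% and 10% RPS (adjusted p = 0.0119 and 0.00518). The nucleic acid sensor Zbp1 had 0.59 (adjusted p = 0.544), Trim15 0.56, the antiviral Ifit1 0.33, the interferon regulator Irf7 0.32, and the tryptophan-degrading enzyme Ido1 0.24 (0.061 without replicate 2 of 0% RPS), none of which passed. Retnlb, the resistin-like protein of goblet cells, had 156, 6180.1, 224, 147, and 109.9 at 0% RPS and 1062, 325, 157, 246, and 988 at 2% RPS. One library set its sign, since the log2 fold change was -1.29 with replicate 2 of 0% RPS and 1.81 without it. Angptl7 (-0.87) likewise stood at 0.37 without that library, so that all 14 genes were then above 0. Of 43 interferon-stimulated genes tested, 2 were nominally higher and 1 lower, with a median of 0.03. Among all genes tested 5.26% were nominally higher and 3.44% lower. Of 20 IL-22 and STAT3 target genes, 4 were nominally higher and 0 lower, and the broader list of 26 epithelial antimicrobial genes had 7 and 0. Both lists rested in part on replicate 5 of 2% RPS. Without that library 2 of the 20 were nominally higher, with 10 above 0 and a median of 0.0098 in place of 0.20, and 4 of the 26 were, with a median of 0.069 in place of 0.26.

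**Figure D3:**
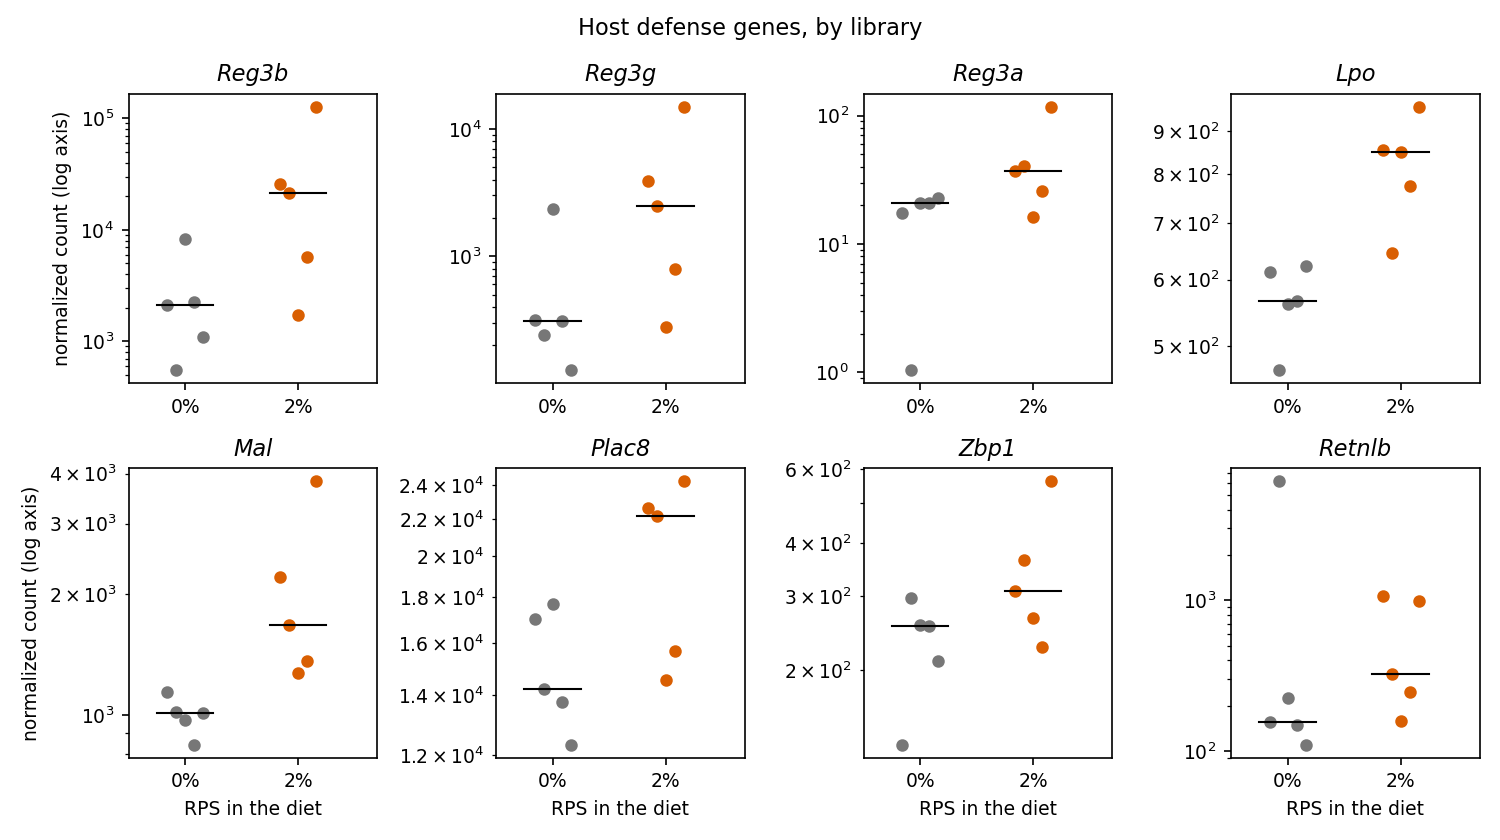
Normalized counts (vertical log axes) of 8 genes of the study's defense list in the 5 libraries of 0% and of 2% RPS, with a line at each median. Lpo and Mal separate the diets, whereas Reg3b, Reg3g, and Reg3a overlap, and Retnlb has a single 0% RPS library at 6180.1.

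Genes of mitochondrial oxidative phosphorylation lay nearly all on the higher side. Of 52 tested, 51 had a log2 fold change above 0 and 30 were nominally higher, against 5.26% of all genes, but 0 changed and the median was only 0.16. The mean level of the list on the log2(normalized count + 1) scale was 12.37, 12.18, 12.29, 12.04, and 12.13 in the 0% RPS libraries and 12.41, 12.43, 12.34, 12.29, and 12.43 in the 2% RPS libraries. Replicates 3 and 4 of 2% RPS lay within the range of 0% RPS. Cox5a, a subunit of cytochrome c oxidase, had 5393, 4474, 5282, 4196, and 4783 normalized counts at 0% RPS and 9304, 9342, 5231, 5257, and 7055 at 2% RPS. Replicates 1, 2, and 5 of 2% RPS lay above all 0% RPS libraries, and the log2 difference was 0.58 with an SE of 0.16 (adjusted p = 0.219), and it was called in 3 of the 10 refits without 1 library. The complex III genes Uqcrfs1 (0.27) and Uqcrb (0.21) were also nominally higher. Depending on which library was left out, 11 to 42 of the 52 were nominally higher, the fewest without replicate 4 of 0% RPS and the most without replicate 1, and the median ran from 0.12 to 0.22.

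Exon length and abundance moved with this pattern. Exon length here is that of all annotated exons of a gene merged, and not the length of a transcript. In the quartile of tested genes with the shortest exon length 58.0% had a log2 fold change above 0, compared with 37.3% in the longest quartile, and in the quartile with the highest counts 63.1% did, compared with 38.4% in the lowest. The oxidative phosphorylation genes had a median exon length of 4361 bases and a median count of 6019, against 5895 and 846 for all tested genes. The part of length and abundance in the result was not tested.

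The other metabolic lists were examined next. The background for these and all lists below is all genes tested, of which 5.26% were nominally higher and 3.44% lower. All but 2 of 31 cholesterol synthesis genes were above 0, with a median of 0.24 and 1 nominally higher. This last count depended on the libraries fitted, with 11 without replicate 4 of 2% RPS and 7 with only the libraries of the 2 diets. Without replicate 3 or 5 of 0% RPS, or replicate 2 or 5 of 2% RPS, the count was 0. Mvd, the mevalonate diphosphate decarboxylase, had 535, 681, 606, 489, and 617 normalized counts at 0% RPS and 968, 804, 819, 497, and 976 at 2% RPS (0.47, adjusted p = 0.578), and the groups overlapped. The list's level was lowest in replicate 1 of 0% RPS (10.29) and replicate 4 of 2% RPS (10.36) and at 10.62 or more in the others. Of 17 genes of butyrate transport and sensing none was nominally different, and their median was 0.07. Of 37 genes of fatty acid oxidation and ketogenesis 3 were nominally higher, and the median was 0.04 with and -0.05 without replicate 2 of 0% RPS. Among 24 glycolysis genes 3 were nominally higher (median 0.09).

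The immediate early genes, to which Atf3 belongs, had 26 of 30 members above 0 and a median of 0.21, with 1 changed and 4 nominally higher, Atf3 included. The nominally higher count ran from 2, without replicate 1 or 2 of 2% RPS, to 10, without replicate 3 of that diet. Jund, a subunit of AP-1, had 1979, 2902, 2108, 2232, and 2843 normalized counts at 0% RPS and 4844, 4519.9, 2417, 2253, and 3111 at 2% RPS (0.51, adjusted p = 0.432). Replicates 1 and 2 of 2% RPS were the highest for Jund, Ier2 (0.34), and Fos (0.65), and the same libraries had the highest list levels, 10.10 and 10.15. Replicate 3 of 2% RPS was within or below the 0% RPS range for these genes, although Atf3 was above it there. Nr4a1 (0.59), although nominally higher, Junb (0.36), and Egr1 (0.35) did not pass. Without replicate 2 of 2% RPS Nr4a1 stood at 0.044. Egr1 ran from 0.13 without that library to 1.22 without replicate 3 of 0% RPS, and was 0.20 without replicate 2 of 0% RPS. Of 20 integrated stress response genes 1 was nominally higher, the translation-controlled factor Atf4 (0.30, adjusted p = 0.368), and 1 lower. Lists of 20 endoplasmic reticulum stress genes and 16 heat shock genes had 0 nominal genes.

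Of 12 aldo-keto reductases tested, Akr1b7 changed and 2 others were nominally higher, Akr1a1 (0.17, adjusted p = 0.45) and Akr7a5 (0.19, adjusted p = 0.512). The relatives nearest to Akr1b7 did not pass, with Akr1b8 at 1492, 1396, 1898, 792, and 582 normalized counts at 0% RPS and 1809, 1595, 1527, 1237, and 1440.0 at 2% RPS (0.30), and Akr1b10 at 195 to 317 and 218 to 261 (-0.07, and 0.04 without replicate 2 of 0% RPS). Of 25 NRF2 target genes, which answer oxidants and electrophiles, 4 were nominally higher and 0 lower. Among the 4 were the glutathione reductase Gsr (0.23) and the peroxiredoxin Prdx1 (0.22). As single libraries were left out, 2 to 8 of the NRF2 targets were nominally higher and 0 to 2 lower, with 2 lower without replicate 2 of 0% RPS. Of 30 genes of xenobiotic sensing and metabolism 1 was nominally higher, the sulfotransferase Sult1b1 (0.19, no overlap between diets), and 0 lower. Without replicate 2 of 0% RPS 2 were nominally higher and 5 lower. In that refit 6 of the 30 were above 0, and the median was -0.14 in place of -0.007.

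Among barrier, immune, and transport genes, 5 of 27 tight junction genes were nominally higher and 0 lower around a median of -0.02, led by the junctional adhesion molecule F11r (0.20, adjusted p = 0.343). Of 22 class I antigen presentation genes 5 were nominally higher, including the proteasome activator Psme2 (0.29, adjusted p = 0.219), H2-Q1 (0.47), and the immunoproteasome subunit Psmb10 (0.23). The nominally lower class I gene H2-Q5 (-0.57) was not on this list, and the limit given for it on split reads also holds for H2-Q1. Psme2 had 1141 to 1412 at 0% RPS and 1367 to 1557 at 2% RPS. At 10% RPS its log2 fold change was 0.37, under 1.5-fold (adjusted p = 0.00139). Class II genes had 0 nominal members of 10. In the absorptive lists the intestinal homeobox factor Isx (0.37) and the acyltransferase Mogat2 (0.63) were nominally higher and the lipoprotein receptor Scarb1 (-0.26, and -0.17 without replicate 2 of 0% RPS) lower. The water channel Aqp8 had 670.3, 6463, 917, 98.0, and 118 at 0% RPS and 655, 137, 561, 262, and 277 at 2% RPS, a log2 fold change of -2.13 (adjusted p = 0.512) that includes the 6463 of replicate 2 of 0% RPS and was -0.25 without that library. Lists of 39 cell cycle, 20 circadian, and 15 bile acid genes had 0 nominal members.

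**Figure D4:**
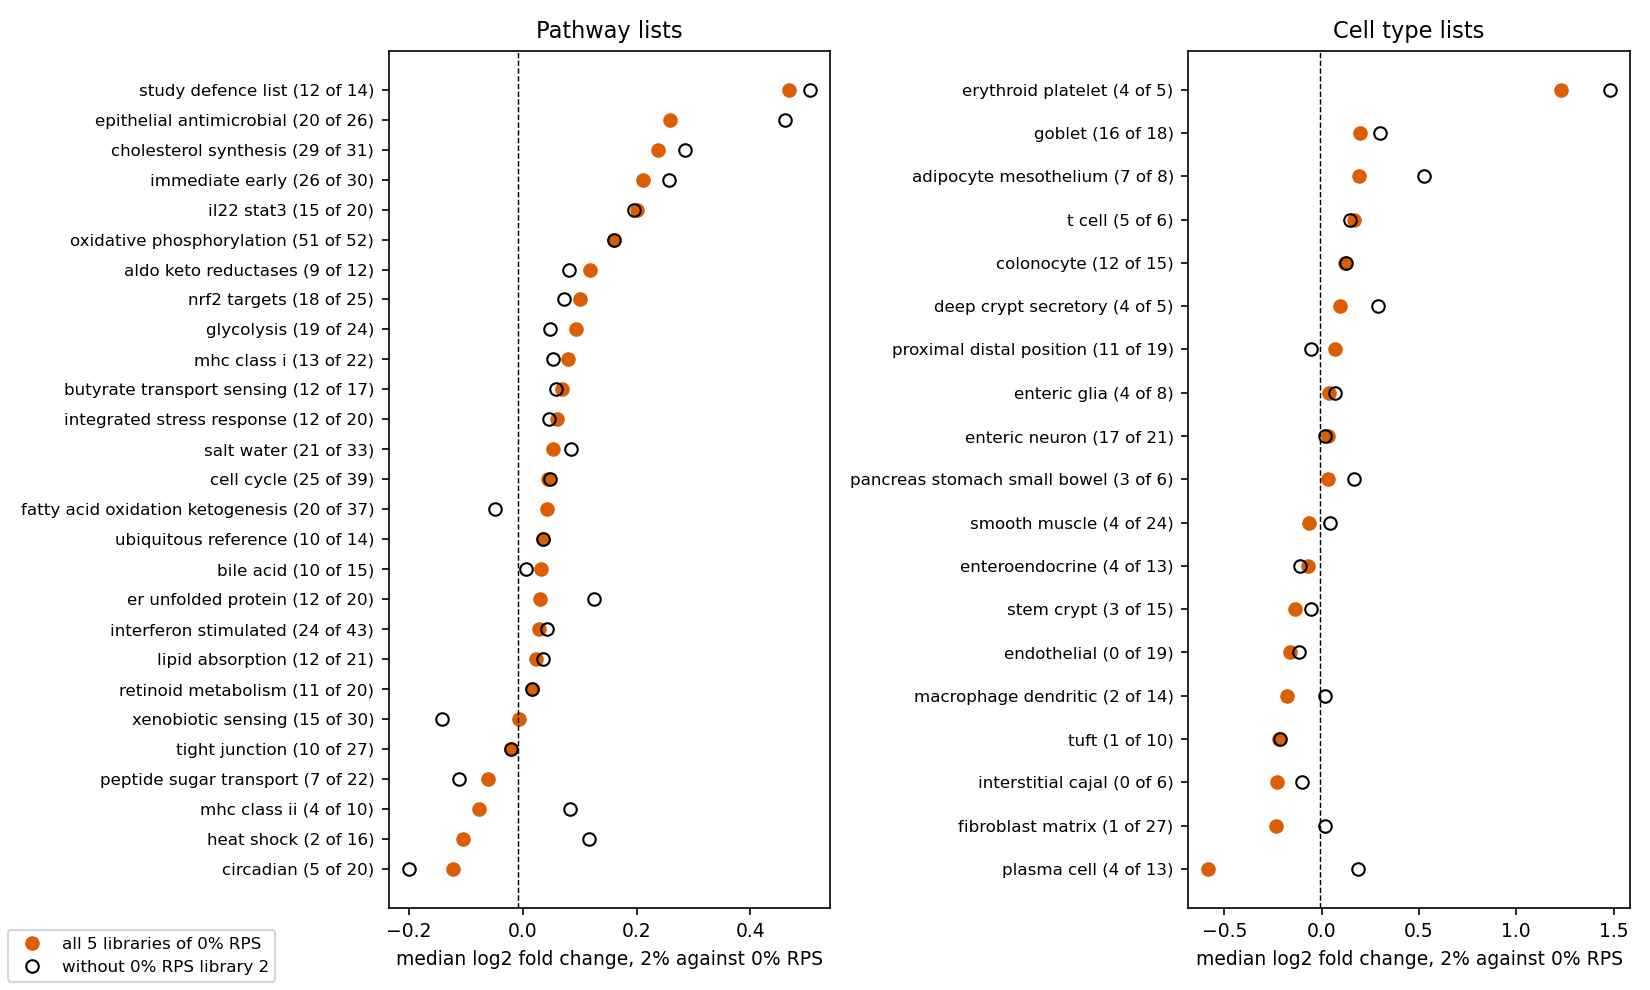
Median log2 fold change, 2% against 0% RPS, of each list with at least 5 tested genes (filled), the same without replicate 2 of 0% RPS (open), and all genes (dashed line), with the number of genes above 0 of those tested in brackets. The fibroblast and plasma cell medians lie at -0.23 and -0.58 with that library and at 0.02 and 0.18 without it.

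Cell type markers were then examined. Of 15 colonocyte markers 4 were nominally higher (1 without replicate 4 of 0% RPS) and 1 lower, with a median of 0.12. Among them was Krt20, a keratin of the surface epithelium (0.36, adjusted p = 0.425). The guanylin family peptide Guca2b, which is not on this list, had 0.24, and 0.16 without replicate 2 of 0% RPS. Of 18 goblet cell markers 16 were above 0 and 2 nominally higher, the mucus lectin Zg16 and the trefoil peptide Tff3. Zg16 had 38474, 35252, 54705, 31834, and 38688 normalized counts at 0% RPS and 64039, 74919, 25772, 52081, and 67529 at 2% RPS (0.52, adjusted p = 0.468), and replicate 3 of 2% RPS was the lowest of all 10 libraries. Without replicate 2 of 0% RPS all 18 goblet markers were above 0 and 8 were nominally higher, and without replicate 2 of 2% RPS none was.

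Most stromal markers lay below 0, and the fibroblast list turned with 1 library. Of 27 fibroblast and matrix markers 26 were below 0 with a median of -0.23, but without replicate 2 of 0% RPS 17 were above 0 and the median was 0.02. Grem1, a BMP antagonist of subepithelial fibroblasts, had 309, 1567, 255, 405, and 337 normalized counts at 0% RPS and 350.1, 258, 288, 296, and 171 at 2% RPS (-1.08, adjusted p = 0.421, and -0.26 in log2 without that library). Rspo3 (-0.56) and Bmp5 (-0.71) were the other nominally lower members, and without replicate 2 of 0% RPS the list had 0. The endothelial list kept its sign, with 19 of 19 markers below 0 (median -0.16) and 15 of 19 without that library (median -0.12). Its nominally lower members were the angiopoietin receptor Tek (-0.34), Lyve1 (-0.31), and Pecam1 (-0.22, and -0.11 without that library), a count that ran from 1 to 7 as single libraries were left out. Tek had 292, 385, 296, 322, and 328 at 0% RPS and 251, 272, 249.7, 245, and 266 at 2% RPS without overlap, and did not pass (adjusted p = 0.343). Smooth muscle markers had 0 nominal members of 24 and a median of -0.06, or 0.04 without that library.

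Of 10 tuft cell markers 9 were below 0 and 3 nominally lower, the lipoxygenase Alox5 (-0.32), Kctd12 (-0.26), and the taste channel Trpm5 (-0.33), and the groups of each overlapped. The nominally lower count was 0 without replicate 5 of 0% RPS or replicate 2 of 2% RPS and 1 without replicate 4 of 0% RPS. The 13 plasma cell markers had a median of -0.58, and of 0.18 without replicate 2 of 0% RPS. The light chain genes Iglc2 (-1.22) and Iglc3 (-1.58, and -0.90 without replicate 4 of 0% RPS) were among the 3 nominally lower. Of 14 macrophage and dendritic cell markers 1 was nominally lower, Cd68 (-0.41, and -0.23 without replicate 2 of 0% RPS). Insl5, a hormone of enteroendocrine L cells, had 77.9, 458, 68.2, 34.2, and 54.9 at 0% RPS and 65.6, 71.1, 68.8, 51.4, and 51.3 at 2% RPS (-1.17, and 0.08 without replicate 2 of 0% RPS). Red cell genes were high in 1 library, as Hbb-bt had 46.1, 80.2, 35.5, 49.4, and 23.8 at 0% RPS and 88.6, 30.3, 591, 43.9, and 37.7 at 2% RPS, and the median of the 5 red cell and platelet genes was 1.23 with and 0.08 without replicate 3 of 2% RPS.

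Genes of position along the gut were examined last. Of 19 tested 11 were above 0 and 8 below, with 1 nominally higher and 3 lower (median 0.07). Replicate 2 of 0% RPS had the lowest list level of its diet (9.55). The distal Hox gene Hoxa9 had 264, 2422, 257, 524, and 346 normalized counts at 0% RPS and 678, 232, 243, 389, and 241 at 2% RPS (-1.10, and 0.04 without replicate 2 of 0% RPS), and Hoxa7 had -0.64 with and -0.053 without it. The intestinal factor Cdx2 had 7301 to 8696 and 8335 to 10552 (0.20, adjusted p = 0.507). The part of segment position in the differences above was not tested.

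**Figure D5:**
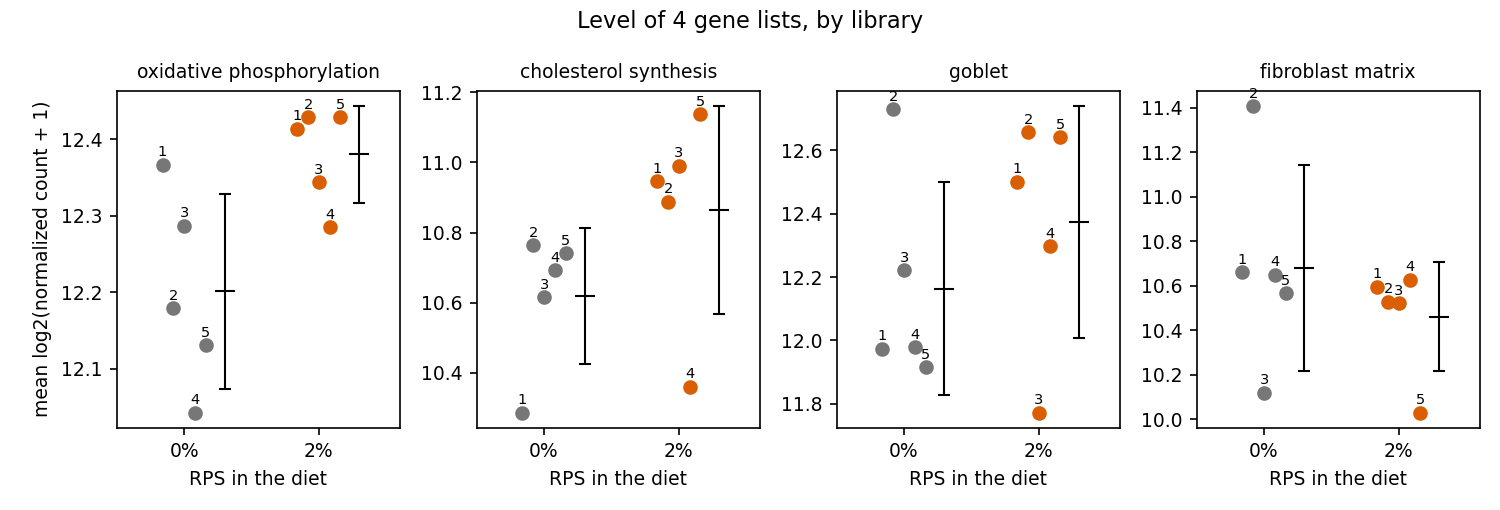
Level of 4 lists, the mean of log2(normalized count + 1) over their genes (vertical), in each library of 0% and 2% RPS (points, numbered by replicate) with the mean and SD of 5 libraries. Replicate 2 of 0% RPS is the highest for the fibroblast (11.41) and goblet (12.73) lists and lies inside the range of its diet for oxidative phosphorylation (12.18).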

How the data were processed

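RNA from the PC was sequenced as stranded mRNA libraries. The authors removed bases below Q30, and aligned and counted reads in CLC Genomics Workbench on GRCm39. The deposited values are raw counts per gene, neither normalized nor pooled. How strand and multimapping reads were treated, the annotation, and the rule that left 12701 genes were not given in the sources used here. The authors tested with DESeq2, with a model that was also not given there.

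Libraries were grouped by the treatment in their labels, and columns were matched by label number, with 0 columns unmapped. Replicates were numbered in accession order within a diet. The labels tie each library to a number and not explicitly to an animal, so p-values measure the spread between these libraries. DESeq2 (version 1.42.0, R 4.3.3) was fitted to the counts of all 20 libraries with diet as the only term. Median-of-ratios size factors, independent filtering, and Cook filtering were used. Changed genes had an adjusted p of at most 0.05 and, without shrinkage, a fold change of at least 1.5. Of the table's genes 125 were 0 in every library and 140 had no p. GENCODE M39 matched 12682 identifiers. edgeR (version 4.0.16) ran on the 12366 genes that passed its expression filter. The steps were tested on simulated data. Tables and figures used Python 3.11.15, pandas 2.3.3, and matplotlib 3.10.9.

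The total of each library was 20581013 to 32871160 counts, so that a floor of 3 counts was 0.0913 to 0.146 CPM, which covers counting error only. Lists were described by counts, the median log2 fold change, and the mean log2(normalized count + 1) per library. The members and lists were chosen with earlier results of these data known. The rule for named genes took the changed genes, the 10 smallest p in each direction at a mean of at least 10, and the 5 largest nonoverlapping differences of at least 1.5-fold in each direction. It also took the 3 smallest p and 2 highest means of each list, the 14 genes of the study's defense list, and all immediate early genes and aldo-keto reductases. Of these, 86 genes are named in the text, and some that met the rule are not reported here.

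Alternatives were edgeR, TMM factors, a low-count filter (10 counts or more in 5 libraries), neither independent nor Cook filtering in turn, a fold threshold of 2 or none, shrinkage of fold changes, a fit of the 2 diets alone, a smooth muscle score as a covariate, and omission of each library in turn. Omission of each library with independent filtering off, list counts under edgeR, the covariate, and the 2 diets alone, gene families by name, and the split by exon length and count were added after seeing the data. Other tissues were not analysed here.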

Additional observations from a re-analysis of the deposited data

Results flagged for a closer look

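In 270 gene-by-diet and list-by-diet groups of 5 libraries, 36 had a library that stood apart by Dixon's test. The test flags about 1 in 20 groups of normally distributed values. Here the gene counts were not on a log scale, the genes were chosen from these data, and lists share members. The 36 are therefore not weighed against that rate. Of the 36, 14 concerned replicate 2 of 0% RPS. In normalized counts this library was highest for Retnlb (6180.1), Aqp8 (6463), Grem1 (1567), Hoxa9 (2422), Hoxa7 (1619), Insl5 (458), Angptl7 (363), Arap3 (487), Scarb1 (1029), and Cd68 (169), and lowest for Reg3a (1.04). Its list levels were lowest for xenobiotic sensing (10.42), bile acid genes (10.11), and genes of pancreas, stomach, and small bowel (7.41).

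Replicate 3 of 0% RPS was highest for Reg3b (8323), Reg3g (2362), Egr1 (2650.0), and Ier2 (1639). Replicate 1 of 0% RPS was highest for Fuca1 (7811), Akr7a5 (1734), and Psme2 (1412) and lowest for C87436 (441), and replicate 4 was highest for Acin1 (5469.9). Among the 2% RPS libraries, replicate 5 was highest for Reg3b (127115), Reg3g (14926), Reg3a (117), Duox2 (4581), and the integrated stress response list (9.46) and lowest for the fibroblast list (10.03). Replicate 3 of 2% RPS was highest for Hbb-bt (591), Hba-a1 (542), Hbb-bs (2107), and Isx (7291), replicate 1 for Guca2b (807) and Angptl7 (168), and replicate 2 for Nr4a1 (1259).

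The effect of starch differed between 2% and 10% RPS for Lpo (log2 difference 0.68, adjusted p = 0.0223) and Irf7 (log2 difference 0.91, adjusted p = 0.0166) in the DESeq2 test of the difference itself, with 10% RPS higher for both.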

How the results depend on the processing

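The 3 calls were also 3 with TMM factors, the low-count filter, independent or Cook filtering off, no fold threshold, and a threshold of 2, and 2 with only the 2 diets. The count was 0 with edgeR, 0 with shrunken fold changes, and 5 with the smooth muscle covariate. Without 1 library it ran from 1 (without replicate 5 of 0% RPS) to 10 (without replicate 3 of 0% RPS), and from 1 to 13 with independent filtering off (13 without replicate 1 of 0% RPS and 8 without replicate 3 of 2% RPS). The 6 nonoverlapping genes became 4 at a threshold of 2 and 9 to 21 without 1 library, as fewer libraries must then separate. No difference from 2% RPS passed for the 3 genes under any setting run. Shrunken log2 fold changes turned sign for Reg3b (-0.00475), Reg3g (-0.014), Reg3a (-0.00786), Duox2 (-0.10), Zbp1 (-0.0075), Ido1 (-0.074), Irf7 (-0.0097), Trim15 (-0.019), Fos (-0.00247), and Angptl7 (0.0036). Retnlb was 0.086 with the smooth muscle covariate. Without 1 library, Retnlb ran from -1.67 to 1.81, Angptl7 from -1.74 to 0.37, Akr1b10 from -0.14 to 0.035, Insl5 from -1.42 to 0.075, and Hoxa9 from -1.47 to 0.036, in each case highest and above 0 without replicate 2 of 0% RPS, also with independent filtering off. The causes were not tested beyond these settings. No paired analysis was possible because the diets share no replicate numbers in the labels.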

Other observations

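Gene families taken by the start of their names, after the values had been seen, were also counted. Among all genes tested 47.6% were above 0, 5.26% nominally higher, and 3.44% nominally lower. The Nduf and Atp5 families are oxidative phosphorylation genes, so their counts are not independent of that list. Of 47 Nduf genes (complex I) 45 were above 0 and 19 nominally higher. Of 19 Atp5 genes (ATP synthase) 18 were above 0 and 11 nominally higher, and of 78 Mrpl and Mrps genes (mitochondrial ribosome) 74 and 11. Of 48 proteasome genes 45 were above 0 and 13 nominally higher, with a median of 0.12. Cytosolic ribosomal proteins had 56 of 77 above 0 and 5 nominally higher, the latter near the share of all genes. None of these families had a nominally lower or a changed member. Zinc finger Zfp genes lay on the other side, with 205 of 258 below 0, 23 nominally lower, and 2 nominally higher (median -0.08). Their median exon length was 6424 bases and their median count 379, and the part of length and abundance was not tested.

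All genes were also counted by quartile of abundance. In the quartile with the highest counts 11.3% of genes were nominally higher and 1.72% lower, whereas in the lowest quartile 2.14% were higher and 3.98% lower.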
